A study of Mus musculus with 12 samples.

Results

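Cartilage owes its tensile strength to a small set of collagens, and 8 genes of that set are described here: *Col2a1*, *Col9a1*, *Col9a2*, *Col9a3*, *Col11a1*, *Col11a2*, *Col27a1* and *Col10a1*. They were picked by symbol from a table of 36186 genes, whatever their values, and each has 1 row. The table gives RNA-Seq expression in 12 libraries, 3 in each of 4 groups, made from mouse forelimb zeugopods (the segment of radius and ulna) at E15.5 on a mixed 129/CD-1 background. The resting, proliferative and hypertrophic compartments of the wild type (WT) growth cartilage were cut out by laser capture microdissection. The labels name the hypertrophic compartment hyperproliferative. The *aadd* group is homozygous for mutations of *Hoxa9*, *Hoxa10*, *Hoxa11*, *Hoxd9*, *Hoxd10* and *Hoxd11*, made as frameshifts in the first exon of each gene. Its rudimentary zeugopod shows no separate zones, so the whole chondrocyte population was captured, and the labels give its compartment as resting. Perichondrial cells were taken along with the chondrocytes to some extent. Values are NRPKM, read counts scaled by transcript length and by the mapped reads of the library (RPKM) and then normalized further between libraries, so levels of different genes can be set side by side.

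Collagen molecules are helices of 3 chains. Type II collagen, made of *Col2a1* chains alone, builds the fibrils of cartilage. Type XI, which joins the *Col11a1* and *Col11a2* chains to a *Col2a1* chain, lies within those fibrils and limits their width, and type IX, made of the *Col9a1*, *Col9a2* and *Col9a3* chains, sits on their surface. Type XXVII (*Col27a1*) forms thin fibrils of its own, and type X (*Col10a1*) forms a mesh around hypertrophic chondrocytes and is the classic marker of that stage. In the growth plate, SOX9 with SOX5 and SOX6 drives the genes of the type II, IX and XI chains, while RUNX2 and MEF2C act on *Col10a1* as chondrocytes enlarge.

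Promoter sequence was found in RefSeq (GRCm38.p6) for 6 of the 8 genes and not for *Col2a1* and *Col9a3*. The 250 bases before the start are printed for *Col10a1*, the gene with a pattern of its own, for *Col9a2*, whose level ran closest to that of *Col2a1*, and for *Col11a2*, which, *Col10a1* aside, followed the other members least closely. They cover chr10:34389731-34389980, chr4:121039316-121039565 and chr17:34038888-34039137, all on the plus strand. Capitals mark the letters ACAAAG or ACAATG (the core bound by SOX proteins), TGTGGT (the core bound by RUNX proteins) and TATAAA (the TATA box), searched on both strands; none of them overlap.
Col10a1: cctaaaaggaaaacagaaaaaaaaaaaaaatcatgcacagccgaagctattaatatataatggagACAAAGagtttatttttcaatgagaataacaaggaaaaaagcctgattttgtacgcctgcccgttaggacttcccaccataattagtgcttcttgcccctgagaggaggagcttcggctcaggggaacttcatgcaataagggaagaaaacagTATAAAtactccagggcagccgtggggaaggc
Col9a2: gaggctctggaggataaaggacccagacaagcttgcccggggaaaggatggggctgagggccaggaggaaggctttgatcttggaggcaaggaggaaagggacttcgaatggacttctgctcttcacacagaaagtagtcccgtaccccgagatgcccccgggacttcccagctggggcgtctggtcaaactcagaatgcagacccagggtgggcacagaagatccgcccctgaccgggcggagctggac
Col11a2: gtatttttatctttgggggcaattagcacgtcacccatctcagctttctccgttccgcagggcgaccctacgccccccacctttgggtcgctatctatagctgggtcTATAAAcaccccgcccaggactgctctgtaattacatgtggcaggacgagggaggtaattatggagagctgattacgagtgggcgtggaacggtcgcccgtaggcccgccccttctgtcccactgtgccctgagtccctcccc
*Col10a1* held ACAAAG from 185 to 180 bases before the start and TATAAA from 32 to 27 bases before it. *Col11a2* held TATAAA from 143 to 138 bases before the RefSeq start that this window ends at, which lies upstream of the start used for the gene's coordinates below. No other searched letters were found in these windows or in those of *Col9a1* (2 starts), *Col11a1* and *Col27a1*. Of all 32851 promoters of the same length, 25.2% held a SOX core, 14% the RUNX core and 12.4% the TATA letters. The *Col10a1* window had the lowest GC content of those shown, 41.6% against 60.4% for *Col9a2* and 57.6% for *Col11a2*.

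Before the members' values, a few facts on the libraries. From the steps between low values, 1 read on a 1 kb transcript was worth an estimated 0.309 to 0.530 NRPKM. Were NRPKM plain RPKM, the counted reads per library would be 1888300 to 3237900, but the further normalization enters that figure. All 7 chondrocyte markers listed (*Sox9*, *Acan*, *Matn1*, *Matn3*, *Hapln1*, *Comp* and *Snorc*, listed as 3110079O15Rik) reached 5 NRPKM in every library. Hypertrophic replicate 1 stood apart from replicates 2 and 3. The latter correlated with each other at r = 0.93 over all genes on the log2 scale, but with replicate 1 at only 0.75 and 0.78. Replicate 1 is therefore given apart for the members. The frameshifts need not remove transcripts, so the levels of the targeted genes (5.17 NRPKM or more in every *aadd* library) do not check the genotype. Nothing says that replicates of a group came from separate embryos beyond being independent sets, and *P* values then measure only the spread between these libraries.

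*Col2a1*, the type II chain, was the most abundant member in every library. It lies on the minus strand of chromosome 15 (mm10, 97975602 to 98004724). Resting replicates 1 to 3 held 798.5, 1202 and 1409 NRPKM, proliferative 894, 1530.4 and 1488, and *aadd* 861, 1074 and 720.3. Hypertrophic replicate 1 held 898 NRPKM, inside the resting and proliferative ranges, whereas replicates 2 and 3 held 245 and 343, below every other library. Outside the hypertrophic group *Col2a1* ranked 4th to 6th of all rows, and in hypertrophic replicates 1 to 3 it ranked 5th, 70th and 29th.

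The type IX chains ran at lower levels and had their lowest values in the hypertrophic group. *Col9a3* (chromosome 2, 180598222 to 180622185) held 344, 467 and 459.9 NRPKM in resting libraries, 313, 519 and 427 in proliferative, 244, 45.7 and 60.7 in hypertrophic and 354, 369.96 and 278 in *aadd*. *Col9a1* (chromosome 1, 24177610 to 24252738) held 254, 354 and 376 in resting, 257, 424 and 373 in proliferative, 206, 36.3 and 60.0 in hypertrophic and 289, 279 and 214 in *aadd*. For both genes all 3 hypertrophic libraries, replicate 1 included, were below all other libraries. *Col9a2* (chromosome 4, 121039566 to 121055325) was the least abundant chain, at 109, 211 and 196 NRPKM in resting, 123, 223 and 199.6 in proliferative, 104, 23.8 and 33.6 in hypertrophic and 114, 151 and 87.0 in *aadd*. Its hypertrophic libraries were below those of WT resting and proliferative but overlapped the *aadd* range. *Tcfl5*, on the opposite strand, overlaps 2 exons of *Col9a3*; it held 1.20 to 20.2 NRPKM, and without strand in the counting reads of the overlap cannot be told apart.

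The chains of type XI behaved less alike. *Col11a1* (chromosome 3, 114030540 to 114220326) held 316, 378 and 419 NRPKM in resting, 370.5, 578 and 516 in proliferative and 369.5, 369 and 340.4 in *aadd*. In hypertrophic libraries it held 382, 146 and 228, so that replicate 1 lay among the proliferative values and only replicates 2 and 3 below. *Col11a2* (chromosome 17, 34039437 to 34066242) held 106, 232 and 239 in resting, 128, 193 and 249 in proliferative, 94.0, 52.9 and 99.65 in hypertrophic and 136, 194 and 72.4 in *aadd*. It was the only member whose hypertrophic replicate 1 was not above both replicates 2 and 3. Its values also spread widely inside groups, with coefficients of variation of 31.0% to 45.4%, against 4.61% to 47.5% for *Col11a1*, where the highest was that of the hypertrophic group.

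*Col27a1* (chromosome 4, 63215412 to 63334990) held 119, 162 and 154 NRPKM in resting, 151, 186 and 182 in proliferative, 132, 28.7 and 32.5 in hypertrophic and 110.4, 141 and 95.1 in *aadd*. Hypertrophic replicate 1 was thus within the resting range and just below the proliferative one. The microRNA gene *Mir455* overlaps the span of *Col27a1* on the same strand, and whether it shares exon bases was not tested.

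*Col10a1*, a compact gene of 3 exons (chromosome 10, 34389981 to 34397085), ran the other way. Resting libraries held 1.86, 5.79 and 3.62 NRPKM and *aadd* libraries 3.93, 4.39 and 4.38. Proliferative libraries held 43.5, 98.9 and 111, and hypertrophic libraries 264, 166 and 221. The order of the group means was hypertrophic, proliferative, *aadd* and resting; the libraries of the first 3 did not overlap their neighbours in that order, and *aadd* and resting did. At these levels the estimated read count behind a value was 17.2 to 43.5 in resting and 30.2 to 39.2 in *aadd* libraries, against 357 to 656 in proliferative and 1685 to 2056 in hypertrophic libraries. *Col10a1* lies inside *Nt5dc1*, which is on the opposite strand and touches 1 of its exons. *Nt5dc1* held 4.87 to 11.2 NRPKM over the 12 libraries, and without strand in the counting reads of the shared stretch cannot be told apart, which bears on the low *Col10a1* values of resting and *aadd* libraries.

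**Figure D1:**
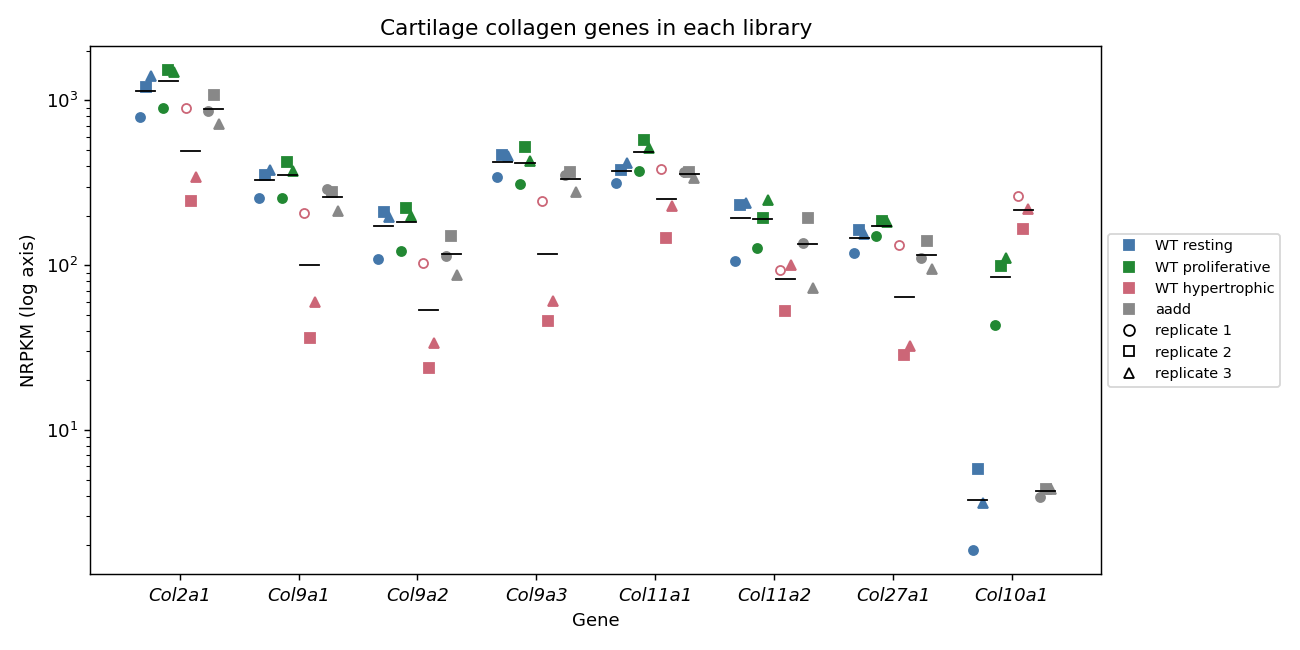
NRPKM (log axis) of the 8 genes in each of the 12 libraries, coloured by group, with the marker shape giving the replicate, the open circle hypertrophic replicate 1 and the black bar the group mean. For *Col2a1*, *Col9a1*, *Col9a2*, *Col9a3* and *Col27a1* the hypertrophic replicates 2 and 3 sit far below all other points, and *Col10a1* lies at 1.86 to 5.79 NRPKM in resting libraries and at 166 to 264 in hypertrophic ones.

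Within groups the members varied together from library to library. Resting replicate 1, proliferative replicate 1 and hypertrophic replicate 2 were each the lowest of their group for all 8 genes, and *aadd* replicate 3 was the lowest for 7, all but *Col10a1*. Hypertrophic replicate 1 was the highest of its group for 7 of the 8, *Col10a1* included. The multiple of replicate 1 over the mean of hypertrophic replicates 2 and 3 was 4.58 for *Col9a3*, 4.31 for *Col27a1*, 4.27 for *Col9a1*, 3.61 for *Col9a2*, 3.05 for *Col2a1* and 2.04 for *Col11a1*. It was 1.36 for *Col10a1* and 1.23 for *Col11a2*. Over all 10936 genes tested, and not the 8 members alone, hypertrophic replicate 1 differed from the proliferative mean by a root mean square of 0.71 (log2 scale). From the mean of replicates 2 and 3 it differed by 1.03, while replicates 2 and 3 differed from each other by 0.61.

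Taken as shares of the 8, *Col2a1* varied little outside the hypertrophic group. It gave 38.5% to 43.3% of the summed NRPKM of the 8 genes in the 9 resting, proliferative and *aadd* libraries, and 38.7%, 32.9% and 31.8% in hypertrophic replicates 1 to 3. The shares of the type IX chains were smaller there: *Col9a3* gave 12.04% to 16.8% in those 9 libraries but 10.5%, 6.14% and 5.63% in the hypertrophic ones. *Col10a1* gave 0.0909% to 0.192% in resting, 0.170% to 0.242% in *aadd*, 1.91% to 3.13% in proliferative and 11.4%, 22.3% and 20.5% in hypertrophic libraries. Summed, the 8 genes held 2049 to 3257 NRPKM in resting, 2280 to 3752 in proliferative, 1812 to 2581 in *aadd*, and 2323, 745 and 1078 in the hypertrophic replicates. Of the NRPKM of all 44 collagen genes in the table, they made up 58.1% to 81.7% outside the hypertrophic group and 67.7%, 29.3% and 29.0% in its replicates 1 to 3. In hypertrophic replicates 2 and 3 the larger part of the collagen signal thus came from other collagens.

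**Figure D2:**
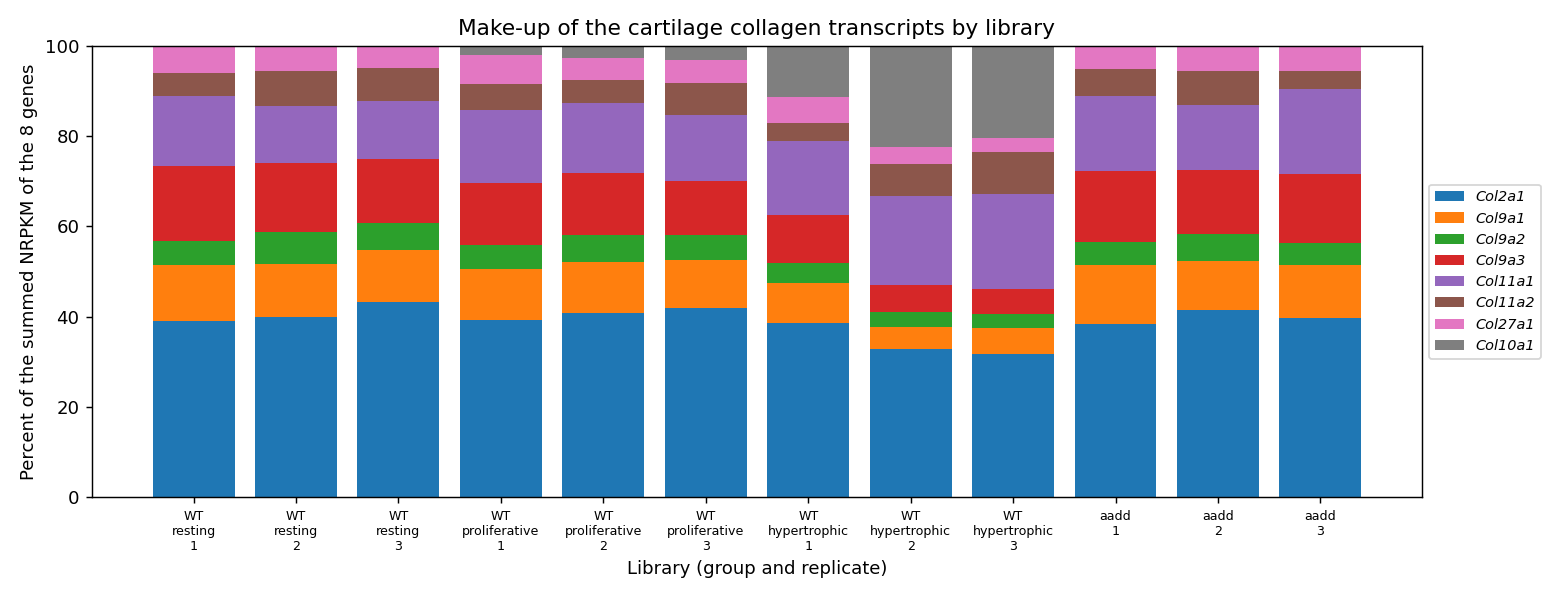
Each bar is 1 library and shows the percent of the summed NRPKM of the 8 genes that each gene gave. The *Col10a1* segment is too thin to see in resting and *aadd* libraries, gives 1.91% to 3.13% in proliferative ones and 11.4% to 22.3% in hypertrophic ones, where the *Col9a1*, *Col9a2* and *Col9a3* segments are thinner.

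In a ratio of 2 genes within a library any factor common to that library cancels, though a normalization that acts on genes unequally does not. The ratio of *Col10a1* to *Col2a1* was 0.00233, 0.00482 and 0.00257 in resting replicates 1 to 3, 0.0487, 0.0646 and 0.0746 in proliferative, 0.294, 0.678 and 0.643 in hypertrophic, and 0.00457, 0.00409 and 0.00607 in *aadd*. No library of the 3 WT groups overlapped another group, hypertrophic replicate 1 included. The mean log2 ratio was 4.29 higher in proliferative than in resting and 3.03 higher in hypertrophic than in proliferative libraries. Each gave *P* = 0.1 by a two-sided exact permutation test, the smallest value 3 against 3 libraries allow, and 0.457 after adjustment over the 32 ratio tests made. The *aadd* and resting libraries overlapped, with a difference of 0.65 (exact permutation *P* = 0.3, adjusted 0.533).

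The type IX chains kept close proportions, and the type XI chains less so. The ratio of *Col9a1* to *Col9a3* stayed between 0.741 and 0.989 in all 12 libraries, although each gene itself varied far more, and *Col9a3* to *Col9a2* stayed between 1.81 and 3.20. *Col11a1* to *Col11a2* ranged from 1.63 to 4.70, with both ends of that range outside the hypertrophic group. The ratio of *Col11a1* to *Col2a1* was 0.425, 0.596 and 0.664 in hypertrophic libraries, against 0.298 to 0.396 in resting and 0.347 to 0.414 in proliferative libraries. Hypertrophic replicate 1 stood only just above the proliferative values and within the *aadd* range of 0.343 to 0.473. *Col9a1* to *Col2a1*, a ratio added after the values were seen, went the other way, at 0.229, 0.148 and 0.175 against 0.2503 to 0.287 in proliferative libraries. The log2 differences between hypertrophic and proliferative groups were 0.54 and -0.58, and both exact permutation tests gave *P* = 0.1, the floor of the design. Quantile normalization moved them to 0.26 and -0.97.

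**Figure D3:**
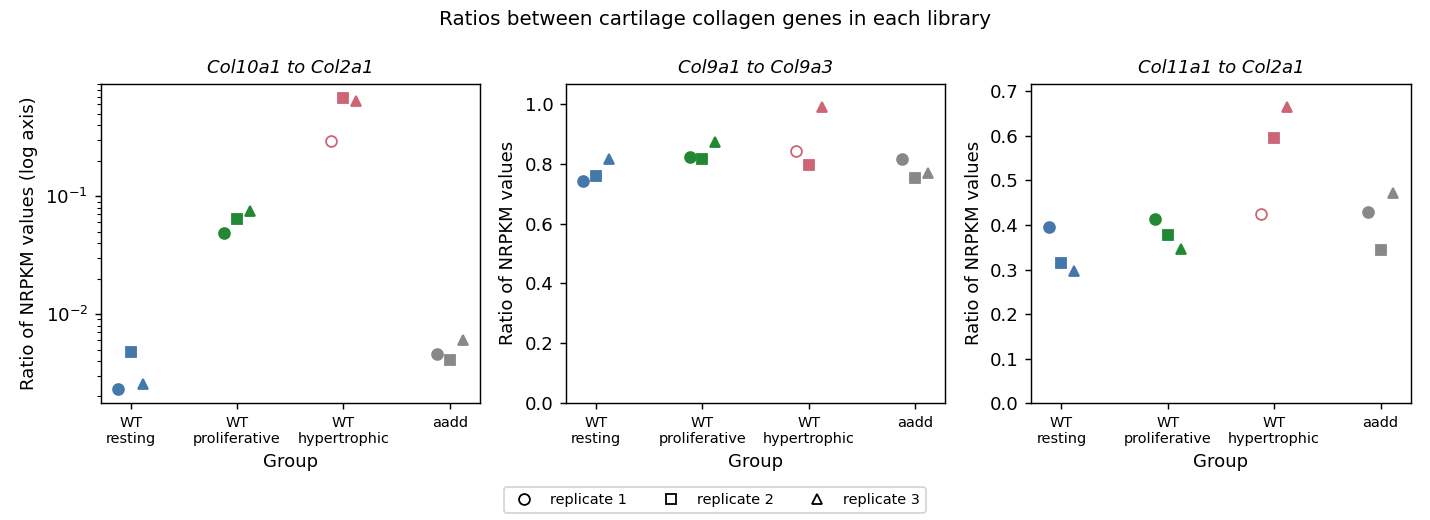
Ratios of NRPKM values per library for *Col10a1* to *Col2a1* (log axis), *Col9a1* to *Col9a3* and *Col11a1* to *Col2a1* (linear axes from 0), with shape for the replicate and the open circle for hypertrophic replicate 1. The left panel climbs from 0.00233 to 0.678 over the WT groups with *aadd* at the resting level, the middle panel is nearly flat, and in the right panel hypertrophic replicates 2 and 3 stand above the rest.

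The first comparison asked what changes as resting chondrocytes enter the proliferative compartment. Among the cartilage collagens *Col10a1* alone rose, by 4.48 on the log2 scale (SE 0.51; means of 84.5 and 3.76 NRPKM; unadjusted *P* = 7.1e-05, adjusted *P* = 0.025, limma). It was higher in every proliferative library than in every resting library, as were 9.83% of genes tested. A gene was called, here and below, at unadjusted *P* up to 0.05 and a fold change (FC) of at least 2, and 5.53% of the 10936 genes tested were called in this comparison, 2.56% higher and 2.97% lower. An adjusted *P* under 0.05 was reached by 0.622% of genes. The other 7 genes were not called and their libraries overlapped, with log2 FC from -0.03 (*Col9a3*) to 0.38 (*Col11a1*). The 95% confidence interval for *Col2a1* ran from -0.54 to 0.93.

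Of 13 tested regulators of cartilage collagen genes 6 were called higher and none lower. An unadjusted *P* under 0.05 in limma was reached by 8 of the 13, and by 17.1% of all genes tested. The other 2 were *Hdac4* (-0.84), a repressor of RUNX2 and MEF2C, and *Sox5* (-0.41), both short of the 2-fold limit. Both were lower in every proliferative than in every resting library, as were 14.2% of genes tested. The largest FC among the calls was that of *Ihh*, the hedgehog ligand made by prehypertrophic chondrocytes (log2 FC 5.58, adjusted *P* = 0.0087), then *Sp7*, a zinc finger factor downstream of RUNX2 (4.10, adjusted *P* = 0.075), and *Mef2c* (2.50, adjusted *P* = 0.013). The median log2 FC of the list was 0.31, against -0.06 for all genes tested. Among 8 tested partners of these collagens in the matrix, *Comp* and *Snorc* rose (1.16 and 1.11). *Leprel1*, a prolyl hydroxylase, was the only call among 14 genes for collagen modification, folding and secretion (1.68), and *Lox*, which crosslinks collagen, the only one among 10 genes for propeptide removal, crosslinking and breakdown (1.64). With same-numbered libraries as pairs *Mmp9*, a gelatinase of osteoclasts, was called as well (1.34, adjusted *P* = 0.18, limma). The 6 bone and fibrous collagens gave no call, and none had an unadjusted *P* under 0.05 in limma. Beside these, 5 of 6 tested osteoblast markers rose, led by *Alpl* (5.37) and *Ibsp* (4.70), genes that maturing chondrocytes also express. *Sp7* is among the 5 and is the same gene as in the regulator list. The macrophage marker *Tyrobp* rose (3.15), but its resting values of 0.162 to 0.691 NRPKM were near the worth of 1 read. The other 4 tested osteoclast and macrophage markers were not called without the block. The endothelial marker *Eng* fell (-1.15, libraries overlapping), while the other 2 tested endothelial markers, *Pecam1* (0.07) and *Cdh5* (0.15), were not called. The part of these markers in the result was not tested.

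The next comparison followed proliferative cells into hypertrophy. *Col10a1* rose by 1.45 on the log2 scale (SE 0.40; 217 against 84.5 NRPKM; unadjusted *P* = 0.011, adjusted *P* = 0.18), and all of the other 7 genes were called lower. The type IX chains had the largest differences, -2.22 (SE 0.64) for *Col9a3*, -2.16 (SE 0.64) for *Col9a1* and -2.01 (SE 0.57) for *Col9a2*. *Col27a1* followed at -1.79 and *Col2a1* at -1.58, and the type XI chains differed least, at -1.21 for *Col11a2* and -1.04 for *Col11a1*. All 8 members were called, against 9.67% of all genes tested (5.32% higher, 4.34% lower). None passed an adjusted *P* of 0.05 (0.176 to 0.234, limma), and neither did any of the 10936 genes, of which 2115 (19.3%) had an unadjusted *P* under 0.05. Libraries did not overlap for *Col10a1* (higher, as for 13.3% of genes tested) and for *Col9a1*, *Col9a2*, *Col9a3*, *Col11a2* and *Col27a1* (lower, as for 10.9%). *Col2a1* and *Col11a1* overlapped through hypertrophic replicate 1.

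Without hypertrophic replicate 1 all 8 genes were again called, with log2 FC of -2.96 for *Col9a3*, -2.88 for *Col9a1*, -2.64 for *Col9a2*, -2.49 for *Col27a1*, -2.13 for *Col2a1*, -1.40 for *Col11a1*, -1.33 for *Col11a2* and 1.29 for *Col10a1*. The adjusted *P* of the first 6 was then 0.0046 to 0.036, that of *Col11a2* 0.079 and that of *Col10a1* 0.11, in a comparison where 18.4% of genes were called. Leaving out proliferative replicate 2 or 3, or hypertrophic replicate 2 or 3, instead reduced the members called to 5, 4, 4 and 5, and *Col2a1*, *Col11a1* and *Col27a1* lost their call each time. The calls of *Col10a1* and the type IX chains held in all 6 of these fits.

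Markers of other cells moved with the same libraries. The chondrocyte markers summed to 1563 NRPKM in hypertrophic replicate 1, within the proliferative range of 1519 to 2496, and to 266 and 340 in replicates 2 and 3. The 10 osteoclast and macrophage markers summed to 63.9, 1599 and 1227 NRPKM in hypertrophic replicates 1 to 3, against 18.4 to 47.7 in all other libraries. The 10 endothelial markers summed to 24.4, 324 and 227 (other libraries 10.6 to 59.9), with all 10 at 5 NRPKM or more in replicates 2 and 3 and 1 in replicate 1, and the 8 osteoblast markers to 1365, 2116 and 3101 (other libraries 114 to 999.9). Erythroid markers summed to 63.4 NRPKM in replicate 1 and 373 to 411 in replicates 2 and 3. No marker of these lists was at 0 in hypertrophic replicates 2 or 3, and 1 osteoblast marker was in replicate 1. Fewer chondrocytes in a sample and less collagen RNA per chondrocyte cannot be told apart in bulk tissue, and the part of these markers in the fall of the 7 genes was not tested. *Col10a1* was high in hypertrophic replicate 1, in which the endothelial sum was at the level of other groups. The osteoblast sum (1365) and the osteoclast and macrophage sum (63.9) of that library were above those of every library of the other groups. The part of these cells in the *Col10a1* value was not tested.

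**Figure D4:**
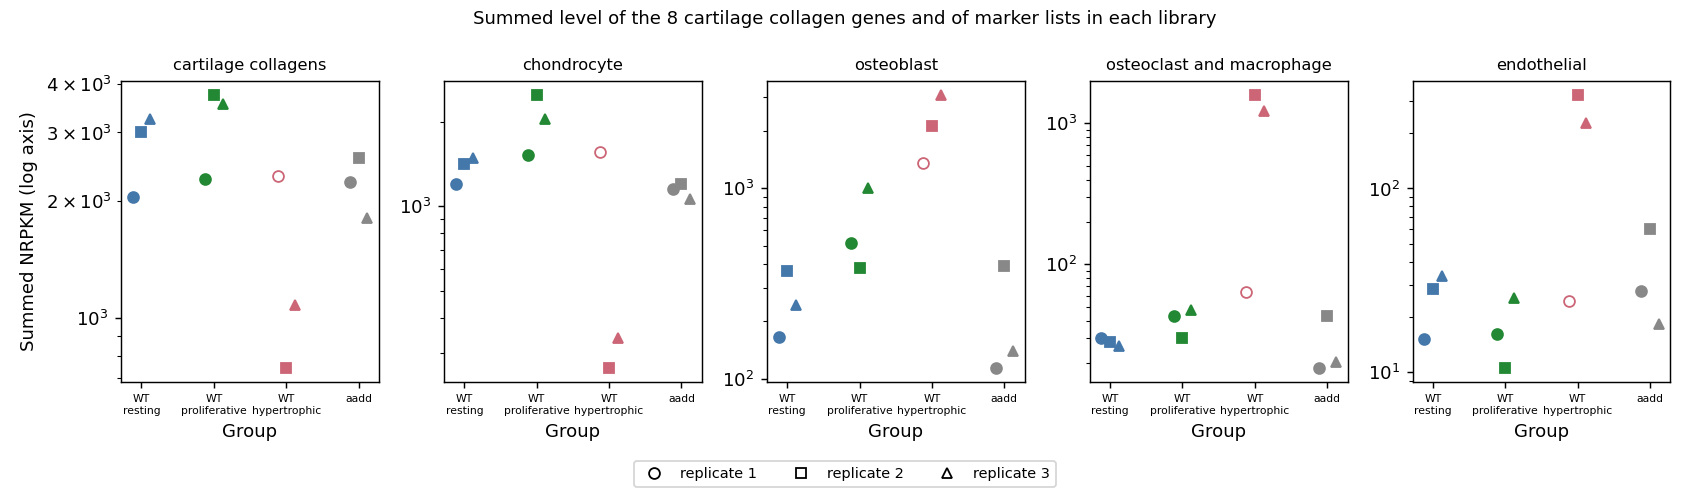
Summed NRPKM (log axes) of the 8 cartilage collagen genes and of lists of chondrocyte, osteoblast, osteoclast and macrophage, and endothelial markers, with 1 point per library and the open circle for hypertrophic replicate 1. Hypertrophic replicates 2 and 3 are lowest in the first 2 panels and highest in the other 3, and replicate 1 lies near the proliferative libraries except in the osteoblast panel.

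Genes around the collagens behaved as follows in hypertrophic against proliferative libraries. Of 13 regulators 3 were called lower and none higher, and 5 had an unadjusted *P* under 0.05 in limma. The calls were *Sox5* (-3.17), *Sox9* (-2.42) and *Sox6* (-1.33), the SOX factors of the cartilage programme. *Sp7* (0.71) and *Runx2* (0.54) were higher in every hypertrophic than in every proliferative library but short of the 2-fold limit. *Sox9* held 143 NRPKM in hypertrophic replicate 1 and 12.9 and 17.6 in replicates 2 and 3, against 164 to 180.1 in proliferative libraries. Of 8 matrix partners 6 fell, led by the matrilins *Matn3* (-2.68) and *Matn1* (-2.30) and by *Snorc* (-1.88), a cartilage membrane proteoglycan. The list median was -1.75, against 0.04 for all genes. The chondrocyte marker list shares *Acan*, *Matn1*, *Matn3*, *Hapln1*, *Comp* and *Snorc* with the partners and *Sox9* with the regulators. Their falls and that of the chondrocyte sum are therefore not separate observations. Of the 14 modification genes only *Plod2*, a lysyl hydroxylase, was called (-1.58), while 5 had an unadjusted *P* under 0.05 in limma. The other 4, *Creb3l2* (-0.92), *Plod3* (-0.91), *Plod1* (-0.82) and *Lepre1* (-0.46), were lower without overlap but by less than 2-fold. Of the 10 genes for propeptide removal, crosslinking and breakdown 3 rose: *Mmp9* (4.62), *Lox* (1.69), and *Bmp1*, which cuts procollagen propeptides (1.07, with overlapping libraries). Of the 6 bone and fibrous collagens *Col5a2* rose (1.62). None of these genes had an adjusted *P* under 0.05. Several of these differences rested on hypertrophic replicates 2 and 3, the libraries that held the osteoclast and endothelial markers. *Mmp9* held 10.3 NRPKM in replicate 1 and 422 and 378 in replicates 2 and 3, against 1.69 to 8.10 in proliferative libraries. This gene is itself in the osteoclast and macrophage marker list, so its rise and that of the list's sum are not separate observations. *Bmp1* held 21.3 in replicate 1, inside the proliferative range of 12.8 to 23.1, and 43.7 and 48.3 in the others. *Sox5* held 35.3 in replicate 1 and 1.61 and 3.51 in the others, against 50.5 to 61.7 in proliferative libraries. *Matn3* held 131 in replicate 1 and 16.0 and 21.4 in the others, against 153 to 315 in proliferative libraries. Replicate 1 was thus below the proliferative libraries for both genes.

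Across the whole span, hypertrophic against resting, *Col10a1* rose by 5.93 on the log2 scale (SE 0.42), from 3.76 to 217 NRPKM, with an adjusted *P* of 0.0022. Of the other 7 genes 6 were called lower, at unadjusted *P* of 0.0099 to 0.038 and adjusted *P* of 0.085 to 0.17: *Col9a3* (-2.25), *Col9a1* (-2.08), *Col9a2* (-1.92), *Col27a1* (-1.53), *Col2a1* (-1.39) and *Col11a2* (-1.19). *Col11a1* differed by -0.66 (adjusted *P* = 0.30, limma) and was not called. That makes 7 of 8 members, against 13% of all genes tested (5.84% higher, 7.2% lower). An unadjusted *P* under 0.05 was reached by 26.4% of genes and an adjusted one by 6.36%. Libraries did not overlap for *Col10a1* (higher, as for 14.1% of genes) and for the 3 type IX chains and *Col11a2* (lower, as for 17.8%). Without hypertrophic replicate 1 all 8 were called and *Col11a1* differed by -1.02 (adjusted *P* = 0.040, limma). *Col9a3* then differed by -2.99, *Col9a1* by -2.79, *Col9a2* by -2.54 and *Col27a1* by -2.24, with adjusted *P* of 0.0014 to 0.0072, and *Col2a1* by -1.93 (0.011). Without resting replicate 2, resting replicate 3 or hypertrophic replicate 2 the count was 3, 4 and 4. *Col10a1*, *Col9a1* and *Col9a3* were called in all 6 fits that left out a library. This comparison shares its libraries with those above and adds no separate evidence.

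Here 5 of 13 regulators rose and 5 fell, led by *Ihh* (5.11) and *Sp7* (4.81) upward and *Sox5* (-3.58) downward. Of the 8 partners 4 fell, with *Matn3* (-2.24), *Matn1* (-2.21) and *Chad*, a leucine-rich protein that binds collagen (-1.63), in front. In the modification list 1 of 14 rose and 3 fell, with *Creb3l2*, a transcription factor for secretory genes (-1.35), *Plod2* (-1.17) and *Leprel1* (1.16) the largest. In the breakdown list 4 of 10 rose: *Mmp9* (5.97), *Mmp13*, the collagenase of terminal hypertrophic cartilage (5.36), and *Lox* (3.33) had the largest FC. *Mmp13* held 3.05 NRPKM in hypertrophic replicate 1 and 735 and 661 in replicates 2 and 3, against 2.13 to 6.24 in all other libraries, so the library with the most *Col10a1* held *Mmp13* at the level of the other compartments. Of the bone and fibrous collagens *Col5a2* (1.86), *Col1a1* (1.58) and *Col1a2* (1.40) rose.

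The last comparison set *aadd* cartilage against WT resting cartilage. The cartilage collagens gave no call at unadjusted *P* up to 0.05 and FC of at least 1.5, a rule that called 6.56% of all genes tested (3.78% higher, 2.78% lower). None had an unadjusted *P* under 0.05 (0.14 to 0.83, limma; adjusted 0.67 to 0.96), as 9.58% of genes did, and 0.119% of genes had an adjusted one under 0.05. The libraries of both groups overlapped for all 8, while 8.08% of genes were higher and 7.34% lower without overlap. *Col2a1* differed by -0.34 on the log2 scale (95% confidence interval -0.97 to 0.29), *Col9a1* by -0.32, *Col9a3* by -0.34, *Col27a1* by -0.34, *Col9a2* by -0.53, *Col11a2* by -0.54 and *Col11a1* by -0.04. For *Col11a1*, the most even member, the interval ran from -0.44 to 0.36. *Col10a1* differed by 0.31 (interval -0.59 to 1.20). Leaving out resting replicate 1 brought *Col9a2* to -0.83 (unadjusted *P* = 0.020, adjusted 0.35, limma), which was then the only call. The proliferative mean of *Col10a1* was 19.95 times the *aadd* mean of 4.23 NRPKM, and the libraries of these groups did not overlap. That difference was not tested.

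Surrounding genes differed little in *aadd*. Of 13 regulators *Runx3*, a RUNX factor of chondrocyte maturation, fell by 2.22 on the log2 scale (unadjusted *P* = 5.0e-04, adjusted 0.13), from 13.9 to 39.4 NRPKM in resting libraries to 4.64 to 5.60 in *aadd*. *Snorc* fell among the 8 partners (-0.91, libraries overlapping). *Lox* rose (1.40) and *Pcolce*, an enhancer of procollagen cleavage, fell (-1.01, libraries overlapping) among 10 breakdown genes, the latter without a call under the replicate block (adjusted *P* = 0.53, limma). The 14 modification genes and the 6 bone and fibrous collagens gave no call, and none of them had an unadjusted *P* under 0.05 in limma. The chondrocyte markers summed to 1061 to 1201 NRPKM in *aadd* and 1196 to 1488 in resting libraries. The osteoclast and macrophage, endothelial and osteoblast sums overlapped between both groups. Of those markers 5 osteoclast and macrophage, 3 endothelial and 6 osteoblast ones were tested, and only *Tyrobp* was called (3.33, higher). The median log2 FC of the tested osteoclast and macrophage markers was -0.35. *Tyrobp* held 3.09 to 7.44 NRPKM in *aadd* and 0.162 to 0.691 in resting libraries, the latter near the worth of 1 read. The muscle gene *Mylpf* was called higher too (1.82, libraries overlapping). The part of these markers in the collagen values was not tested.

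**Figure D5:**
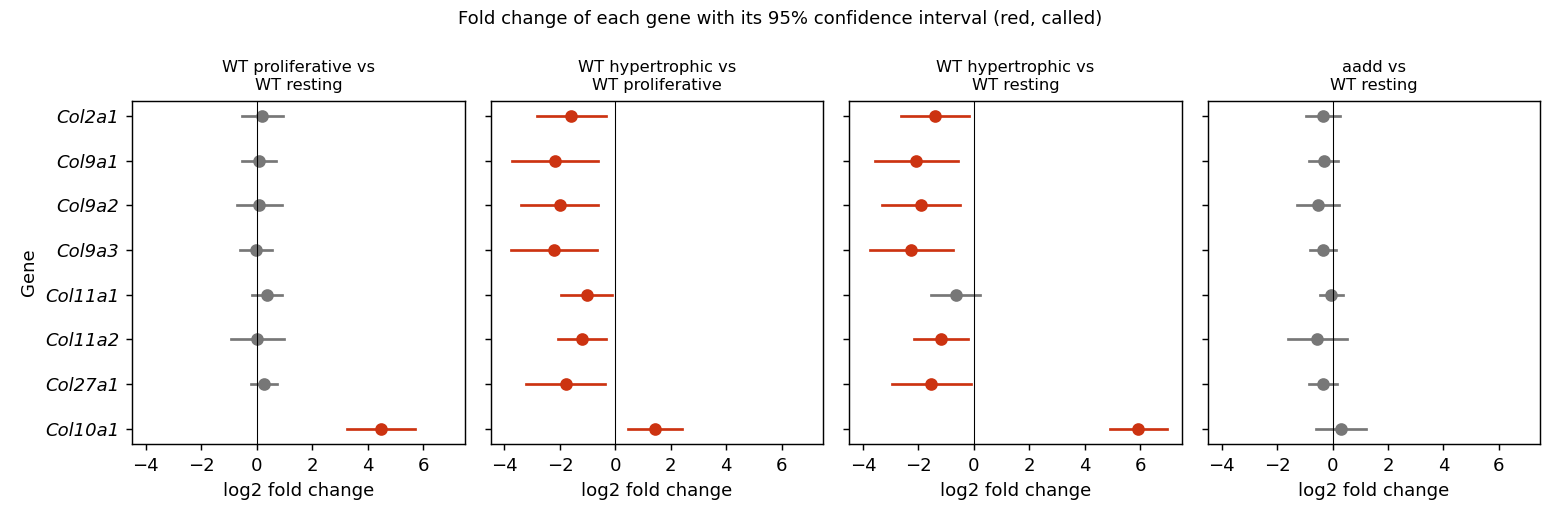
log2 FC of the 8 genes in the 4 comparisons, with bars for the 95% confidence interval and red for genes that were called. *Col10a1* is red in the 3 WT comparisons (4.48, 1.45 and 5.93), the other genes are red and to the left of 0 only where the hypertrophic group takes part, with *Col11a1* grey against resting, and all *aadd* intervals include 0.

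Over all 4 groups in 1 fit, the F test passed an adjusted *P* of 0.05 for *Col10a1* (5.1e-05), *Col9a3* (0.030) and *Col9a1* (0.040), as it did for 13.8% of genes tested. *Col9a2* (0.053), *Col27a1* (0.077), *Col2a1* (0.089), *Col11a1* (0.14) and *Col11a2* (0.18) did not pass. The count of 3 moved with the libraries: without hypertrophic replicate 1 it was 7, and it was 1 without resting replicate 2 or 3, proliferative replicate 2 or 3, hypertrophic replicate 2 or 3, or any *aadd* library.

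Which genes ran most like each member was asked over all 12 libraries, with Pearson's r of log2 values as a description, since the libraries and their depth are shared by all genes. Nearest to *Col2a1* were *Col9a2* (r = 0.99), *Trpv4*, a calcium channel of chondrocytes (0.99), *Acan*, the core protein of the main cartilage proteoglycan (0.98), *Matn3* (0.98) and *Col9a1* (0.98). *Col9a1* and *Col9a3* were each other's nearest gene (0.996), followed by *Lect1*, which encodes chondromodulin (0.995), and *Mia*, a secreted cartilage protein (0.995). *Col9a2* had *Col2a1* and *Trpv4* nearest, *Col11a1* had *Col2a1* (0.96) and *Acan* (0.96), and *Col27a1* had *Matn3* and *Dym* (0.99 each). For *Col11a2* the nearest genes, *Cryba1* (0.96) and *Tnfsf12* (0.95), encode a crystallin and a cytokine, and the nearest member, *Col9a2*, came 39th (0.86).

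*Col10a1* kept other company. Its nearest genes were *Slc13a5*, a citrate transporter (0.98), *Sgms2*, a sphingomyelin synthase (0.97), *Loxl4*, a lysyl oxidase (0.97), *Ppm1e*, a phosphatase (0.97), and *Mef2c* (0.97). The nearest other member, *Col11a1*, came 6370th with r = -0.19. Among the 21 pairs without *Col10a1* r was 0.75 to 0.996, and without the hypertrophic libraries it was 0.63 to 0.97. The 7 pairs with *Col10a1* had r of -0.53 to -0.19 over 12 libraries, but 0.35 to 0.82 over the 9 without the hypertrophic group.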

How the data were processed

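Laser captured tissue from 12 samples was amplified, tagmented and sequenced, and the authors aligned the reads to mm10 (TopHat, per the submitters' processing notes), removed duplicate and multiply aligned reads and computed 1 NRPKM value per gene and library, an RPKM value normalized further by a method not given in the sources used here. The deposited NRPKM values were used as they stood. A gene was tested if 3 or more of the 12 libraries held 5 NRPKM or more (10936 of 36186 genes, all 8 members among them). Tests used limma 3.58.1 in R 4.3.3 on log2(NRPKM + 0.1), so fold changes are on that scale and understate the change of low genes. *P* values were adjusted by Benjamini-Hochberg over all genes tested. Ratios were tested by exact permutation. The members, lists and tests were chosen with earlier results of these data known. All 8 members were named in every comparison, and of other lists up to 3 called genes with the largest fold change. Listed genes named without a call, and those given by replicate, were chosen after their values were seen. Some genes were in more than 1 list: the chondrocyte markers, *Sp7* and *Col1a1* (also osteoblast markers) and *Mmp9* (also an osteoclast and macrophage marker). Likeness named the nearest 5 genes for *Col2a1* and *Col10a1* and the nearest 2 for the others. The labels tie samples across groups by replicate number alone. Same-numbered resting and proliferative libraries deviated together over all genes tested (r = 0.28, 0.18 and 0.20). The replicate block takes them as pairs there, though what they share is not stated. The values reported come from the fit without the block unless the block is named. The hypertrophic and *aadd* libraries share only a number with the others. Alternatives were another pseudocount, no filter or a filter within the comparison, quantile normalization, median-of-ratios scaling, 1 fit of 12 libraries, a replicate block, a variance trend and leaving out each library. The scripts were tested on simulated data.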

Additional observations from a re-analysis of the deposited data

How the results depend on the processing

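With the replicate number as a block, *Col10a1* stayed called in proliferative against resting (adjusted *P* = 0.032, limma), and the block changed no call of another member there or in *aadd*. Among the listed genes it added *Mmp9* there, and in *aadd* it added *Hdac4*, *Ihh* and *Hba-a1* and ended the call of *Pcolce*. In the hypertrophic comparisons it is not known whether same-numbered libraries are matched. With the block 6 members were called there against proliferative (*Col2a1* and *Col11a1* lost) and 5 against resting (*Col2a1* and *Col27a1* lost). Quantile normalization ended the calls of *Col2a1* and *Col11a1* against proliferative, and no filter those of *Col11a1* there and of *Col27a1* against resting. The F test over 4 groups called 1 member without a filter and with the replicate block and 5 with a variance trend. With each library left out in turn it called 1 to 7, and the members called were 4 to 8 (hypertrophic against proliferative), 3 to 8 (hypertrophic against resting) and 0 to 1 (*aadd* against resting). Signs turned only for differences that were not called. In proliferative against resting, *Col9a3* was 0.0088 after rescaling by the median of ratios, and quantile normalization gave *Col2a1* -0.12, *Col9a1* -0.028, *Col9a2* -0.12 and *Col11a2* -0.13. With 1 library left out, log2 fold changes there ran from -0.038 to 0.45 for *Col2a1*, -0.087 to 0.30 for *Col9a1*, -0.21 to 0.35 for *Col9a2*, -0.20 to 0.17 for *Col9a3* and -0.36 to 0.28 for *Col11a2*. In *aadd* against resting, *Col11a1* was 0.14 under quantile normalization and -0.15 to 0.055 with 1 library left out, and *Col10a1* -0.11 to 0.68. Quantile normalization moved the log2 ratio of *Col11a1* to *Col2a1* to 0.36 (proliferative against resting) and 0.26 (hypertrophic against proliferative), and that of *Col9a1* to *Col2a1* to 0.087 and -0.97 there and to -0.19 in *aadd*. The causes were not tested. Groups of 3 libraries and low read counts for *Col10a1* in resting and *aadd* limit the precision.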
